A study of Mus musculus with 12 samples.

Results

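The chemokines and chemokine receptors of the mouse kidney cortex were taken from the gene table by name and biotype: every protein coding gene named Ccl, Cxcl, Cx3cl or Xcl, or Ccr, Cxcr, Cx3cr, Xcr or Ackr, followed by its number. The rule gave 55 genes, 32 ligands and 23 receptors, of 55421 rows. Another 14 rows of the near-identical Ccl19, Ccl21 and Ccl27 copies were left out, as was Cxcl11, which the annotation lists as a polymorphic pseudogene.

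Cortical RNA of 12 male mice was sequenced, 3 in each of 4 groups. KO-D were diabetic mice and KO-C non-diabetic mice that lacked ANRIL, through germline deletion of a non-coding interval on chromosome 4. WT-D were diabetic and WT-C non-diabetic wild-type mice. GEO gives 129S6/SvEvTac-Del[4C4-C5]1Lap/Mmcd as the strain and 8 weeks as the age of every sample, the wild-type ones included. Diabetes was induced with streptozotocin, a toxin of the insulin-making beta cell, given intraperitoneally at 50 mg/kg on 5 consecutive days, and the mice were followed for 2 months. Littermate control mice received citrate buffer, so that hyperglycaemia and exposure to streptozotocin cannot be told apart. The deleted transcript was not analysed here, and the genotypes rest on the labels. The labels do not tie single mice to litters, and p-values measure the spread between these mice.

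Chemokines are small secreted proteins that draw leukocytes along a gradient, and they are read by G protein-coupled receptors of the Gi class. CC and CXC ligands differ in the spacing of their first cysteines. In the injured kidney, tubular, endothelial and mesangial cells are known sources of Ccl2, Cxcl10 and Cx3cl1, while most of the receptors sit on incoming or resident leukocytes. Atypical receptors bind chemokines and clear them without Gi signalling.

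The 12 libraries held 23781928 to 67336174 counted reads, with KO-D the shallowest group (23781928 to 28894558) and WT-D replicate 1 the deepest library. Levels are CPM, the reads of a gene relative to all counted reads of its library, after TMM scaling, which corrects for differences in library composition. A change is a difference on the log2(CPM + 0.1) scale with its standard error, tested with limma over all 18461 genes that passed the filter on low values and adjusted by the method of Benjamini and Hochberg. A gene was called at an adjusted p under 0.05. The scale understates the change of genes near 0.1 CPM, and this touches Ccl2, Ccl3, Ccl4, Ccl7, Ccl12, Cxcl9, Cxcr3 and Cxcr6 in control mice.

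Proximal tubule markers were abundant in all libraries, with summed levels of 4331 to 6001 CPM in KO-D, 5679 to 7349 CPM in WT-D, 10197 to 13377 CPM in KO-C and 8480 to 11101 CPM in WT-C. WT-D replicate 1 stood apart. Its adrenal gland markers summed to 36.0 CPM, against 2.00 to 4.59 CPM in the other 11 libraries, and its adipocyte markers to 214 CPM, against 18.8 to 74.4 CPM. In the other 11 libraries Fabp4 made up most of the adipocyte sum. Adipoq stood at 24.8 CPM in WT-D replicate 1 and at most 1.74 CPM elsewhere, and Plin1 at 13.1 CPM and at most 0.493 CPM. WT-D replicate 3 stood apart in another way. In a principal component analysis its score on PC1, which held 50.9% of the variance, was -5.9, between the other 5 diabetic libraries (-66.0 to -47.9) and the controls (33.0 to 65.4). Without it, 18 of the genes described here were called in WT-D against WT-C, against 19 with it. Of these 18, 16 were called with it too. The calls of Ccl28, Ccr2 and Xcr1 were lost. Ccl8 and Cxcl2, which did not pass the filter with all libraries, were newly called.

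Promoters of 41 of the 55 genes were matched in RefSeq (GRCm38.p6), and 4 are shown because their genes were called higher in a diabetic group and the matches can be set side by side: the interferon-induced pair Cxcl10 and Cxcl9, the monocyte chemokine Ccl12 and the neutrophil chemokine Cxcl1. Each run is the 250 bases before the gene's start, 5′ to 3′ on the gene's strand. Cxcl10 lies at chr5:92348890-92349139 on the minus strand, Cxcl9 at chr5:92328080-92328329 on the minus strand, Ccl12 at chr11:82101595-82101844 on the plus strand and Cxcl1 at chr5:90890995-90891244 on the plus strand. Capitals mark matches, on either strand, to a kB-like motif (GGNNNTTCC, the core read by NF-kB) or an ISRE-like motif (GAAANNGAA, read by interferon regulatory factors).
Cxcl10: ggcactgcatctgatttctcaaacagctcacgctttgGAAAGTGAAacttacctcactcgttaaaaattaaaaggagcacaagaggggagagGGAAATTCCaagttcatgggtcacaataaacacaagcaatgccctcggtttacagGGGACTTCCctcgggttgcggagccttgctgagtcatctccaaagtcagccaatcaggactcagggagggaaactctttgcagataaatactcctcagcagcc
Cxcl9: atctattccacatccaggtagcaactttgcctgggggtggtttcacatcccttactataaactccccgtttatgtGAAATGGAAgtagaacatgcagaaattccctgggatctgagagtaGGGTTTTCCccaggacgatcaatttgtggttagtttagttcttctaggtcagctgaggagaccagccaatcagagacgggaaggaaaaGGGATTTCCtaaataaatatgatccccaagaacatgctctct
Ccl12: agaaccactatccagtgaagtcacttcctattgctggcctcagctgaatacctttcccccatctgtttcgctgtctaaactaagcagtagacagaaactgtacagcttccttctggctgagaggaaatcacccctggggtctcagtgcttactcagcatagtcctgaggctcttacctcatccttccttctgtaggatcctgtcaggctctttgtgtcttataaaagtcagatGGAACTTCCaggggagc
Cxcl1: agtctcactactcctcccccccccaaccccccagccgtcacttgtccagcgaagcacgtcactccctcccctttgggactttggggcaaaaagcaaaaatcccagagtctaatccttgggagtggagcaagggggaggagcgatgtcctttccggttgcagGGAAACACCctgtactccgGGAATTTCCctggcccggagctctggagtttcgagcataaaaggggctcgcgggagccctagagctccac

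The Cxcl10 promoter held an ISRE-like match that began 213 bases upstream and kB-like matches at 158 and 103 bases. The Cxcl9 promoter held the same kinds, an ISRE-like match at 175 bases and kB-like matches at 130 and 42 bases. Ccl12 had a single kB-like match at 17 bases, and Cxcl1 had kB-like matches at 89 and 70 bases. A GAS-like motif (TTCNNNGAA, read by STAT proteins) was in none of these 4 windows. Of the 8 ligands with a promoter that were called higher in a diabetic group, 6 held a kB-like match and 3 an ISRE-like match. Of 6 such receptors, none held a kB-like match, and 1, Ccr2, held an ISRE-like match. Of all 41 genes with a promoter, called or not, 14 held a kB-like and 7 an ISRE-like match. The untested ligands Ccl1, Ccl20, Cxcl2 and Cxcl3 held kB-like matches too. No promoter was matched for Ccl2, Ccl4, Ccl5 and Ccl7, which were also called higher. Among all 32851 RefSeq promoters, 15.7% held the kB-like, 7.13% the ISRE-like and 7.02% the GAS-like motif. A match describes the letters only. No match overlapped one of another motif in these 4 windows.

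Of the 55 genes, 29 passed the filter on low values. In WT-D against WT-C, 18 of them were higher and 1, Ccl28, was lower, and the median change of the 29 was 1.07, against 0.05 over all genes tested. In KO-D against KO-C, 17 were higher and none was lower, with a median of 1.18, against 0.02 over all genes. Over all genes tested, 13.7% were called higher and 8.22% lower in WT-D against WT-C, and 13.6% higher and 17.4% lower in KO-D against KO-C. At an adjusted p under 0.01, 12 of the 29 were higher in WT-D against WT-C, where 6.45% of all genes were. At that threshold 13 were higher in KO-D against KO-C, where 6.65% of all genes were. The filter itself leans on the diabetic libraries, since 11 of the 29 would not have passed it in control libraries alone. These 11 were Ccl2, Ccl3, Ccl4, Ccl7, Ccl12, Ccl17, Ccr7, Cxcl9, Cxcr3, Cxcr6 and Xcr1. In each genotype 9 of the 11 were called higher, a count that the filter favours. Of the 18 genes that would have passed in control libraries alone, 8 were called higher in the knockout comparison and 9 in the wild-type one.

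**Figure D1:**
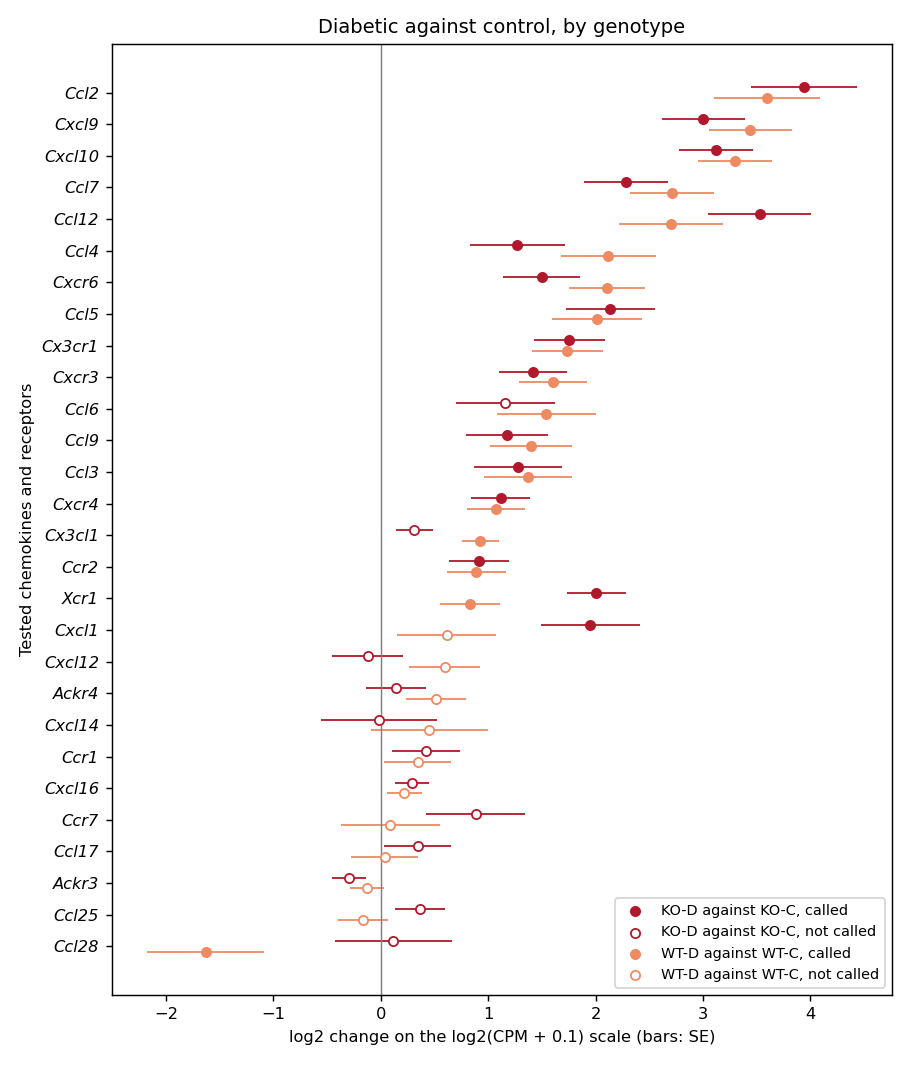
Change in diabetic against control mice for 28 of the 29 tested genes, on the log2(CPM + 0.1) scale, with KO-D against KO-C in red and WT-D against WT-C in orange. Bars are standard errors, filled points were called at an adjusted p under 0.05, and genes are ordered by the change in WT-D. Ccl2, Cxcl9 and Cxcl10 lie at or above 3.00 in both genotypes, while Ccl28 is at -1.63 in WT-D against WT-C and at 0.12 in KO-D against KO-C.

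The same 16 genes were called higher in both genotypes. In the main fit, Ccl6 and Cx3cl1 were called in WT-D against WT-C alone, and Cxcl1 in KO-D against KO-C alone. The difference between genotypes was not past the threshold for any of these 3 genes. Some of the alternatives given below did call Ccl6 and Cx3cl1 in KO-D against KO-C. KO-D was also set against WT-C. There 18 genes were higher and none lower, 12 of them at an adjusted p under 0.01, where 19.4% of all genes were called higher at 0.05 and 10.4% at 0.01. That comparison shares its control mice with WT-D against WT-C.

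The CXCR3 ligands Cxcl9 and Cxcl10, which draw activated T cells and NK cells and are classical interferon targets, were among the genes with the largest changes. Cxcl10 (chr5:92346638-92348889, mm10) stood at 8.50, 6.83 and 10.5 CPM in KO-D, against 0.469, 1.08 and 1.33 CPM in KO-C. In the wild type it stood at 9.55, 6.72 and 13.3 CPM in WT-D, against 0.831, 1.12 and 0.713 CPM in WT-C. Every diabetic mouse was above every control mouse, by a wide margin. The change was 3.12 ± 0.34 (SE; adjusted p = 8.49e-05, limma) in the knockout and 3.30 ± 0.34 (adjusted p = 9.28e-05) in the wild type, an 8.70-fold and a 9.84-fold difference. The knockout change minus the wild-type change, here and for every such difference given, was -0.18, with an interval at 95% confidence of -1.22 to 0.87.

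Cxcl9, the gene next to Cxcl10 on chromosome 5, had 1.67, 2.13 and 2.17 CPM in KO-D, against 0.147, 0.190 and 0.145 CPM in KO-C. It had 2.91, 1.33 and 2.20 CPM in WT-D, against 0.0332, 0.0561 and 0.272 CPM in WT-C. Diabetic and control mice again did not overlap. Its change was 3.00 ± 0.39 (adjusted p = 0.000183) in the knockout and 3.44 ± 0.39 (adjusted p = 0.000142) in the wild type. Per kilobase of exon, Cxcl10 averaged 3.83 CPM in KO-D and 4.37 CPM in WT-D, and 0.426 CPM in KO-C and 0.394 CPM in WT-C, which placed it 6th among the 55 genes in KO-D and 5th in WT-D, and 10th in KO-C and 12th in WT-C.

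The CCR2 ligands, which bring monocytes out of the blood, formed the other strongly changed group. All 3 tested members were higher in both genotypes. None of the 3 would have passed the filter in control libraries alone, so this count leans on the filter. Ccl2, or MCP-1, had 2.31, 3.25 and 3.57 CPM in KO-D, against 0.147, 0 and 0.232 CPM in KO-C. It had 2.87, 2.16 and 5.64 CPM in WT-D, against 0.133, 0.0841 and 0.408 CPM in WT-C. No control mouse reached 0.5 CPM and no diabetic mouse was under 2 CPM. The change was 3.94 ± 0.49 (adjusted p = 0.00016) in the knockout and 3.60 ± 0.49 (adjusted p = 0.000558) in the wild type.

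Ccl12, a mouse monocyte chemokine with no direct human counterpart, had 1.01, 1.67 and 2.47 CPM in KO-D, against 0.0587, 0.0317 and 0.0579 CPM in KO-C, a change of 3.53 ± 0.48 (adjusted p = 0.000234). It had 2.04, 0.459 and 0.619 CPM in WT-D, against 0.0997, 0.0561 and 0 CPM in WT-C, a change of 2.70 ± 0.48 (adjusted p = 0.00244). WT-D replicate 1 was by far the highest wild-type mouse. Without it the change was 2.10, and it was still called (adjusted p = 0.0109).

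Ccl7, or MCP-3, lies next to Ccl2. It had 0.600, 0.854 and 0.892 CPM in KO-D, against 0.205, 0 and 0.0869 CPM in KO-C, a change of 2.29 ± 0.39 (adjusted p = 0.000929). It had 0.656, 0.459 and 0.756 CPM in WT-D, against 0, 0.0280 and 0 CPM in WT-C, a change of 2.71 ± 0.39 (adjusted p = 0.00074). The wild-type control value rests on 1 read in 3 libraries, against 95 reads in WT-D, a ratio of 58.9 with an exact counting interval of 10.3 to 2351. Ccl8, listed with these genes by its name as a monocyte chemokine, was too low to be tested and is described with the other untested genes. Its receptor was not examined here.

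**Figure D2:**
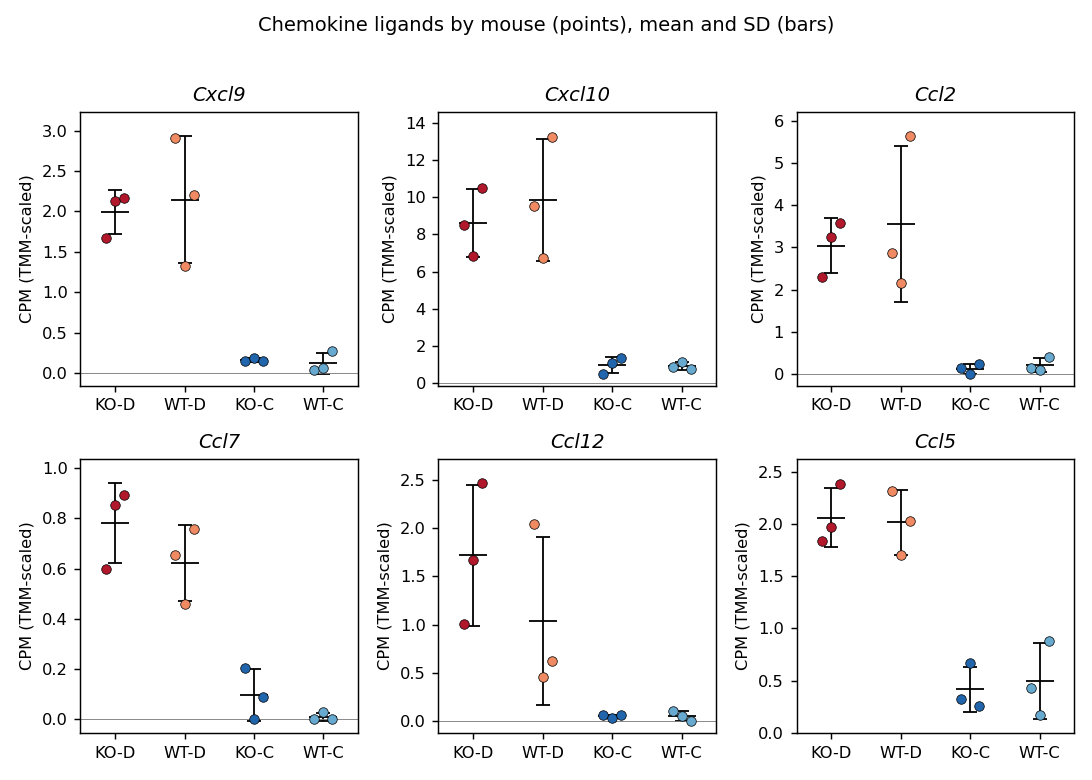
TMM-scaled CPM of 6 chemokine ligands in each mouse (points), with the mean and SD of each group of 3 (horizontal lines and bars). In all 6 panels the 3 KO-D and 3 WT-D mice lie above the 3 KO-C and 3 WT-C mice, and Cxcl10 reaches 13.3 CPM in a WT-D mouse.

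Ccl3, Ccl4, Ccl5, Ccl6 and Ccl9, inflammatory CC ligands that draw monocytes and T cells, were all tested. In the wild type all 5 were higher, with a median change of 1.54, and in the knockout 4 were higher, with a median of 1.27. Ccl3 and Ccl4 would not have passed the filter in control libraries alone. All 5 lie within a single stretch of chromosome 11 (chr11:83525778-83664683, mm10).

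Ccl5, or RANTES, a product of T cells and of stimulated tubular cells, had 1.83, 1.97 and 2.38 CPM in KO-D, against 0.323, 0.666 and 0.261 CPM in KO-C. It had 2.31, 1.70 and 2.03 CPM in WT-D, against 0.432, 0.168 and 0.883 CPM in WT-C. The diabetic mice of both genotypes were tightly grouped and above all controls. The change was 2.14 ± 0.41 (adjusted p = 0.00201) in the knockout and 2.01 ± 0.41 (adjusted p = 0.00528) in the wild type.

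Ccl4, or MIP-1 beta, had 0.221, 0.263 and 0.446 CPM in KO-D, against 0.0587, 0.0317 and 0.116 CPM in KO-C, a change of 1.27 ± 0.44 (adjusted p = 0.0426). It had 1.13, 0.229 and 0.481 CPM in WT-D, against 0.0664, 0.0280 and 0.0340 CPM in WT-C, a change of 2.12 ± 0.44 (adjusted p = 0.00555). The knockout call was lost, at adjusted p = 0.0506 to 0.159, without any single one of KO-D replicates 1, 2 and 3 or KO-C replicates 1 and 2. Ccl3, or MIP-1 alpha, had 0.0948, 0.263 and 0.327 CPM in KO-D, against 0, 0.0634 and 0.0290 CPM in KO-C, a change of 1.28 ± 0.41 (adjusted p = 0.0299). It had 0.396, 0.206 and 0.138 CPM in WT-D, against 0.0332, 0.0561 and 0 CPM in WT-C, a change of 1.37 ± 0.41 (adjusted p = 0.0304). Each control group held only 3 reads of Ccl3, against 22 in KO-D and 45 in WT-D, which gave ratios of 7.67 (exact counting interval 2.30 to 40.0) in the knockout and 9.30 (2.99 to 46.8) in the wild type. Its wild-type call was lost without WT-D replicate 1 or 2 or WT-C replicate 1 or 3 (adjusted p = 0.0606 to 0.15), and its knockout call without KO-D replicate 2 or 3 or KO-C replicate 1 or 3 (adjusted p = 0.0637 to 0.127). With a pseudocount of 0.5 or 1 in place of 0.1, both Ccl3 calls were lost (adjusted p = 0.0532 and 0.0685 in the wild type, 0.0577 and 0.0766 in the knockout), as was the knockout call of Ccl4 (adjusted p = 0.12 and 0.177), which was also lost without the filter on low values (adjusted p = 0.0703). The wild-type change of Ccl3 ran from 0.27 to 3.00 over the alternatives.

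Ccl6 and Ccl9 are rodent macrophage chemokines that act on Ccr1. Ccl9 had 1.71, 1.61 and 2.14 CPM in KO-D, against 0.880, 0.730 and 0.637 CPM in KO-C, a change of 1.18 ± 0.38 (adjusted p = 0.0313). It had 3.77, 1.44 and 1.72 CPM in WT-D, against 1.30, 0.448 and 0.679 CPM in WT-C, a change of 1.40 ± 0.38 (adjusted p = 0.0204). The groups did not overlap, but WT-D replicate 1 was far above the other WT-D mice. Without WT-D replicate 1 or WT-C replicate 2 or 3 the wild-type call was lost (adjusted p = 0.0513 to 0.11), and without KO-D replicate 1, 2 or 3 or KO-C replicate 2 or 3 the knockout call was lost (adjusted p = 0.0531 to 0.11).

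Ccl6 had 0.821, 1.87 and 1.99 CPM in KO-D, against 0.704, 0.412 and 0.724 CPM in KO-C, a change of 1.16 ± 0.46 that was not called (adjusted p = 0.0705). It had 4.90, 1.19 and 1.65 CPM in WT-D, against 0.831, 0.561 and 0.645 CPM in WT-C, a change of 1.54 ± 0.46 (adjusted p = 0.0304). WT-D replicate 1 carried much of the wild-type value, and without it the change was 0.96 (adjusted p = 0.148). The call was also lost without WT-C replicate 1, 2 or 3, at adjusted p = 0.0508 to 0.0764. The changes of the genotypes differed by -0.38 (interval -1.78 to 1.02, adjusted p = 0.843).

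Cx3cl1, or fractalkine, is made by endothelium and tubular epithelium and is anchored in the membrane, where it holds Cx3cr1-bearing monocytes. It had 35.7, 48.9 and 42.4 CPM in KO-D, against 33.1, 30.6 and 38.1 CPM in KO-C, and 58.0, 45.3 and 69.2 CPM in WT-D, against 30.3, 31.8 and 27.3 CPM in WT-C. All WT-D mice were above all WT-C mice, while KO-D replicate 1 fell within the range of KO-C. The change was 0.31 ± 0.17 in the knockout and was not called (adjusted p = 0.181), and 0.93 ± 0.17 in the wild type (adjusted p = 0.00284). The changes differed by -0.62 (interval -1.13 to -0.10), which did not pass adjustment over all genes (unadjusted p = 0.0235, adjusted p = 0.25). Set directly against WT-D, KO-D was at -0.43 (interval -0.80 to -0.06, adjusted p = 0.186), with KO-D replicate 2 above WT-D replicate 2. Against WT-C, KO-D was higher by 0.50 ± 0.17 (adjusted p = 0.0334), a call lost without WT-C replicate 1 or 3 or KO-D replicate 2 or 3 (adjusted p = 0.0573 to 0.125).

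Cxcl1, or KC, draws neutrophils through Cxcr2. It had 1.45, 1.15 and 2.59 CPM in KO-D, against 0.352, 0.127 and 0.782 CPM in KO-C, and 0.804, 0.665 and 1.10 CPM in WT-D, against 0.698, 0.308 and 0.611 CPM in WT-C. KO-D lay above the other 3 groups, although its lowest mouse, at 1.15 CPM, was close to the highest WT-D mouse. The change was 1.95 ± 0.46 in the knockout (adjusted p = 0.0065) and 0.61 ± 0.46 in the wild type, which was not called (adjusted p = 0.352). The changes differed by 1.34 (interval -0.07 to 2.74, adjusted p = 0.373), and KO-D against WT-D was at 0.88 (interval -0.11 to 1.88, adjusted p = 0.348). Against WT-C, KO-D was higher by 1.50 ± 0.46 (adjusted p = 0.0208), a call lost without WT-C replicate 2 (adjusted p = 0.0743) or KO-D replicate 3 (adjusted p = 0.0948).

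Ccl28, an epithelial chemokine that draws antibody-secreting cells in mucosal tissue, was the only one of the 29 called lower in WT-D relative to WT-C. It had 39.3, 11.2 and 13.1 CPM in KO-D, against 9.89, 14.0 and 32.5 CPM in KO-C, and 10.7, 11.9 and 13.3 CPM in WT-D, against 45.8, 16.5 and 67.3 CPM in WT-C. WT-D was even, and the other groups each held at least 1 mouse above 30 CPM. The change was -1.63 ± 0.54 in the wild type (adjusted p = 0.0473) and 0.12 ± 0.54 in the knockout (adjusted p = 0.89), and the changes differed by 1.75 (interval 0.09 to 3.41, adjusted p = 0.314). The wild-type call was lost without WT-D replicate 1, 2 or 3, WT-C replicate 1 or 3, KO-D replicate 3 or KO-C replicate 2 (adjusted p = 0.0567 to 0.158). Of 7 B and plasma cell markers, 3 were tested and none was called in either genotype, and their sums were 12.1 to 30.5 CPM in KO-D, against 12.2 to 30.1 CPM in KO-C, and 12.5 to 39.4 CPM in WT-D, against 10.9 to 70.9 CPM in WT-C. The part of these cells in the Ccl28 levels was not tested.

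Cxcl12, Cxcl16 and Ackr3 were among the 4 most abundant of the 55 genes in every group. Per kilobase of exon they averaged 9.13, 12.7 and 9.62 CPM in KO-D, 15.7, 14.0 and 10.2 CPM in WT-D, 9.66, 10.4 and 11.8 CPM in KO-C, and 10.9, 11.9 and 11.1 CPM in WT-C. Cxcl12, the ligand of Cxcr4 that guides progenitor and stromal cells, had 50.0, 100 and 73.8 CPM in KO-D, against 95.4, 71.2 and 70.3 CPM in KO-C, and 97.0, 115 and 172 CPM in WT-D, against 139, 76.5 and 52.2 CPM in WT-C. Each pair overlapped, and neither change was called (-0.12 ± 0.33 in the knockout, 0.59 ± 0.33 in the wild type). KO-D against WT-D was at -0.79 (interval -1.51 to -0.07, adjusted p = 0.219).

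Cxcl16, a membrane-bound ligand of Cxcr6 made by macrophages and tubular cells, had 34.6, 35.7 and 45.1 CPM in KO-D, against 26.8, 34.6 and 32.8 CPM in KO-C. It had 42.4, 35.4 and 48.8 CPM in WT-D, against 33.6, 39.2 and 35.1 CPM in WT-C. Its changes of 0.29 ± 0.16 in the knockout (adjusted p = 0.187) and 0.22 ± 0.16 in the wild type (adjusted p = 0.33) were not called. Ackr3, the scavenger of Cxcl12, had 37.1, 30.2 and 29.2 CPM in KO-D, against 36.9, 35.5 and 46.5 CPM in KO-C, and 38.3, 33.9 and 29.8 CPM in WT-D, against 41.5, 32.5 and 37.8 CPM in WT-C. It too was not called, at -0.30 ± 0.16 in the knockout and -0.13 ± 0.16 in the wild type.

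Cxcl14, an epithelial and stromal chemokine, varied widely between mice, with 1.01, 4.99 and 3.63 CPM in KO-D, against 2.58, 2.35 and 3.22 CPM in KO-C, and 3.93, 4.66 and 7.39 CPM in WT-D, against 8.64, 2.63 and 2.24 CPM in WT-C. Ccl25, the gut and thymus ligand of Ccr9, was even, with 6.48, 6.27 and 6.96 CPM in KO-D, against 5.66, 6.12 and 3.74 CPM in KO-C, and 5.68, 6.49 and 4.71 CPM in WT-D, against 8.57, 4.96 and 5.77 CPM in WT-C. Neither was called in any comparison. Ccl17, a ligand of Ccr4, was tested at 0.116 to 0.408 CPM across the 12 mice and was not called either.

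**Figure D3:**
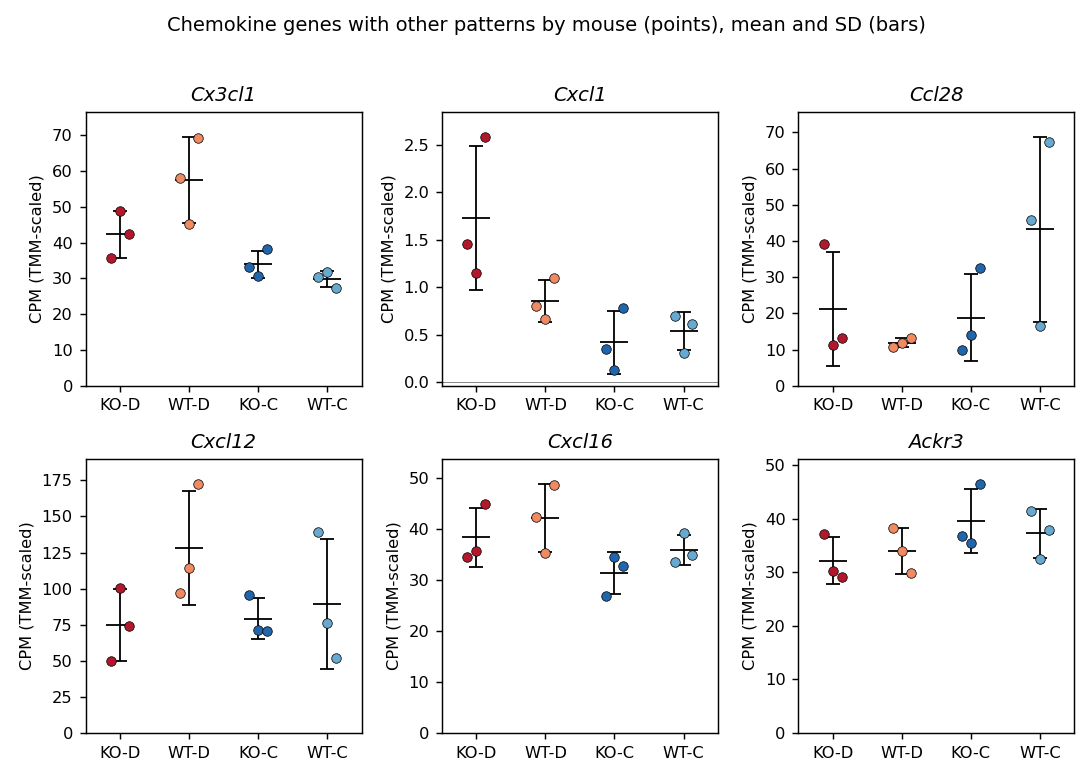
TMM-scaled CPM of Cx3cl1, Cxcl1, Ccl28, Cxcl12, Cxcl16 and Ackr3 in each mouse (points), with the mean and SD of each group of 3. Cx3cl1 is highest in WT-D (45.3 to 69.2 CPM), Cxcl1 in KO-D (1.15 to 2.59 CPM), and Ccl28 ranges from 9.89 to 67.3 CPM with its widest spread in WT-C.

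Among the tested receptors, Ccr2, Cxcr3, Cxcr4, Cxcr6, Cx3cr1 and Xcr1 were higher in each genotype. Of these, Cxcr3, Cxcr6 and Xcr1 would not have passed the filter in control libraries alone. In a bulk library, fewer cells of a type and less RNA per cell cannot be told apart, and the same holds for more cells and more RNA.

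Cx3cr1, carried by patrolling monocytes and by the resident macrophages and dendritic cells of the kidney, had 3.70, 7.13 and 6.81 CPM in KO-D, against 2.02, 1.40 and 1.45 CPM in KO-C, a change of 1.76 ± 0.33 (adjusted p = 0.00168). It had 7.30, 3.60 and 6.84 CPM in WT-D, against 1.93, 1.12 and 1.97 CPM in WT-C, a change of 1.74 ± 0.33 (adjusted p = 0.00359). Diabetic and control mice did not overlap, and the 2 changes differed by 0.02 (interval -0.99 to 1.03).

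Ccr2, which reads Ccl2, Ccl7 and Ccl12 on inflammatory monocytes, had 4.61, 4.89 and 5.71 CPM in KO-D, against 2.93, 2.19 and 2.84 CPM in KO-C, a change of 0.91 ± 0.28 (adjusted p = 0.023). In the wild type it had 6.12, 3.69 and 7.32 CPM in WT-D, against 2.82, 2.16 and 4.08 CPM in WT-C, a change of 0.89 ± 0.28 (adjusted p = 0.0356). The wild-type groups overlapped, since WT-C replicate 3 was above WT-D replicate 2. The Ccr2 call was lost in the wild type without WT-D replicate 1 or 3 or WT-C replicate 1 or 2 (adjusted p = 0.0849 to 0.134), and in the knockout without KO-D replicate 3 (adjusted p = 0.0886) or KO-C replicate 2 (adjusted p = 0.0756).

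Cxcr3, the receptor of Cxcl9 and Cxcl10 on activated T and NK cells, had 0.474, 0.361 and 0.535 CPM in KO-D, against 0.0587, 0.159 and 0.116 CPM in KO-C, a change of 1.42 ± 0.32 (adjusted p = 0.00454). It had 0.680, 0.482 and 0.722 CPM in WT-D, against 0.166, 0.0841 and 0.170 CPM in WT-C, a change of 1.61 ± 0.32 (adjusted p = 0.00422). Receptor and ligands were thus higher in the same mice. Cxcr6, found on tissue-resident T cells, had 0.569, 0.985 and 1.01 CPM in KO-D, against 0.205, 0.254 and 0.232 CPM in KO-C, a change of 1.50 ± 0.36 (adjusted p = 0.00685). It had 1.13, 0.642 and 1.20 CPM in WT-D, against 0.0664, 0.140 and 0.272 CPM in WT-C, a change of 2.11 ± 0.36 (adjusted p = 0.00191). Cxcr6 was called in both genotypes, and its ligand Cxcl16 in neither.

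Cxcr4, the widely expressed receptor of Cxcl12, had 3.82, 4.24 and 5.32 CPM in KO-D, against 1.82, 1.55 and 2.75 CPM in KO-C, a change of 1.12 ± 0.27 (adjusted p = 0.00776). It had 5.13, 4.20 and 3.03 CPM in WT-D, against 1.73, 2.44 and 1.53 CPM in WT-C, a change of 1.07 ± 0.27 (adjusted p = 0.0152). The wild-type call was lost without WT-D replicate 1 or 2 or WT-C replicate 3 (adjusted p = 0.0526 to 0.083).

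Xcr1 marks the dendritic cells that cross-present antigen to CD8 T cells. It had 1.11, 0.919 and 1.04 CPM in KO-D, against 0.205, 0.159 and 0.174 CPM in KO-C, a change of 2.01 ± 0.28 (adjusted p = 0.000251). It had 0.754, 0.780 and 0.997 CPM in WT-D, against 0.532, 0.280 and 0.510 CPM in WT-C, a change of 0.83 ± 0.28 (adjusted p = 0.0465). The groups did not overlap in either genotype, and all KO-C mice were below all WT-C mice. The wild-type call was lost without any single one of the 12 libraries (adjusted p = 0.0517 to 0.146). The changes differed by 1.17 (interval 0.33 to 2.02, adjusted p = 0.166), and KO-C against WT-C was at -0.92 (interval -1.52 to -0.32, adjusted p = 0.586).

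Ccr1, Ccr7, Ackr3 and Ackr4 were tested and not called in any comparison. Ccr1, the receptor of Ccl3, Ccl6 and Ccl9, had 0.979, 0.887 and 1.40 CPM in KO-D, against 0.646, 0.698 and 1.01 CPM in KO-C, and 1.19, 1.40 and 0.791 CPM in WT-D, against 0.731, 1.26 and 0.645 CPM in WT-C. Ccr7, which leads dendritic cells and T cells to lymph nodes, ranged from 0.0579 to 0.510 CPM, and the scavenger Ackr4 from 0.332 to 0.758 CPM. Ackr3 is given above.

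**Figure D4:**
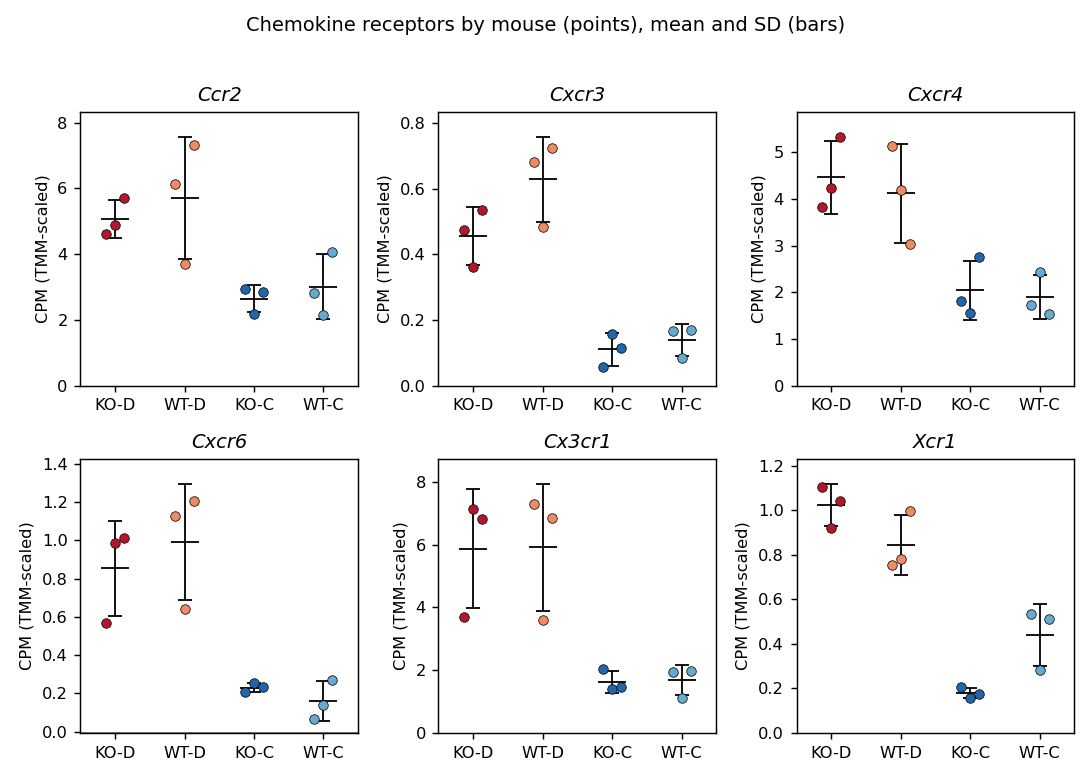
TMM-scaled CPM of 6 receptors called higher in both genotypes, in each mouse (points), with the mean and SD of each group of 3. Diabetic and control mice of a genotype are apart in every panel except Ccr2, where WT-C replicate 3 (4.08 CPM) lies above WT-D replicate 2 (3.69 CPM).

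Leukocyte markers were counted beside these receptors. Over all genes tested, 13.6% were higher and 17.4% lower in KO-D against KO-C, and 13.7% higher and 8.22% lower in WT-D against WT-C. Of 11 macrophage markers, 6 were higher in KO-D against KO-C and 8 in WT-D against WT-C, with summed levels of 119 to 221 CPM in KO-D, 162 to 288 CPM in WT-D, 104 to 132 CPM in KO-C and 107 to 132 CPM in WT-C. Of 10 T cell markers, 7 were higher in the knockout and 3 in the wild type, at sums of 5.97 to 9.56 CPM in KO-D, 6.77 to 11.6 CPM in WT-D, 4.14 to 5.43 CPM in KO-C and 3.48 to 6.45 CPM in WT-C. Of 7 dendritic cell markers, 6 were tested and 4 were higher in each genotype, at sums of 9.82 to 15.3 CPM in KO-D, 11.3 to 13.1 CPM in WT-D, 3.56 to 5.60 CPM in KO-C and 4.12 to 6.66 CPM in WT-C. Of 5 monocyte markers, 2 were higher in each genotype. Of 8 NK cell markers, 6 were tested, with 1 higher in the knockout and 0 in the wild type, and of 9 neutrophil markers 2 were tested and 1 was higher in each genotype. The NK cell count in the knockout was near the share over all genes. No list had a marker at 0 in all libraries. Non-leukocyte lists moved too: of 8 fibroblast and mural cell markers, 7 were higher in the knockout and 8 in the wild type, and of 9 proximal tubule markers, 8 were lower in the knockout and 2 in the wild type. Of 8 endothelial markers, 4 were higher in the knockout and 6 in the wild type. Of 6 podocyte markers, 5 were higher in each genotype. Of 6 thick limb and distal tubule markers, 3 were higher in the knockout and 2 in the wild type. Of 7 collecting duct markers, 2 were higher and 1 lower in the knockout, and 1 was higher in the wild type. The wild-type count and the count lower in the knockout of this list were near the shares over all genes. The part of cell composition in the chemokine and receptor changes was not tested.

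Without WT-D replicate 1, the library with the high adrenal and adipocyte sums, 12 of the 29 genes were called in WT-D against WT-C, all higher. The 7 calls lost were Ccl3, Ccl6, Ccl9, Ccl28, Ccr2, Cxcr4 and Xcr1. WT-D replicate 1 also had the highest macrophage sum (288 CPM).

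The remaining 26 genes, 14 ligands and 12 receptors, were not tested. Ccl26 and Cxcl15 had no read in any library, and of the 24 others 18 had their highest read count, ties included, in WT-D replicate 1, the deepest library. Ackr1, Ackr2, Ccl22, Ccr10, Cxcl17 and Cxcr5 reached 12 to 19 reads there, and Ccl1, Ccl24, Ccr1l1, Ccr3, Ccr4, Ccr6, Ccr8, Ccr9, Cxcl3, Cxcl5 and Xcl1 did not exceed 9 reads in any library. The remaining genes were more uneven. Ccl8 had 201, 7 and 6 reads in WT-D, against none in WT-C, and 2, 23 and 5 reads in KO-D, against 2, 0 and 0 in KO-C. Summed over the group and scaled to depth, WT-D was at least 44.2-fold higher than WT-C, set against a floor of 3 reads over the group, but 1 mouse gave nearly all of these reads. Ccl11, or eotaxin, had 55, 4 and 5 reads in WT-D, against 0, 1 and 0 in WT-C, and 1, 6 and 6 reads in KO-D, against 2, 1 and 0 in KO-C. Cxcl13, the B cell chemokine, had 50, 2 and 2 reads in WT-D, against 3, 0 and 0 in WT-C, and 1, 9 and 3 reads in KO-D, against 1, 3 and 0 in KO-C. In all 3 genes most WT-D reads came from the library with the high adrenal and adipocyte sums, whose part in these counts was not tested. The other WT-D mice were still above every WT-C mouse for Ccl8 and Ccl11. In KO-D against KO-C the ratio was 15.7 for Ccl8 (exact counting interval 3.98 to 135.5), 4.53 for Ccl11 (1.25 to 24.8) and 3.40 for Cxcl13 (1.05 to 14.3), and the mice of the knockout groups overlapped for Ccl11 and Cxcl13.

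Cxcl2, which like Cxcl1 draws neutrophils, had 6, 6 and 8 reads in KO-D, against 1, 0 and 0 in KO-C, and 25, 5 and 9 reads in WT-D, against 1, 0 and 0 in WT-C. The ratios were 20.9 (exact counting interval 3.35 to 866.9) in the knockout and 24.2 (4.09 to 979.5) in the wild type. Ccl20, the ligand of Ccr6 made by stimulated epithelium, had 6, 5 and 8 reads in KO-D, against none in KO-C, and 5, 7 and 4 reads in WT-D, against 1, 0 and 0 in WT-C. KO-D was at least 6.62-fold higher than KO-C, and the wild-type ratio was 9.92 (1.54 to 416.1). These intervals cover counting error only, and not the spread between mice. The neutrophil receptors Cxcr1 and Cxcr2 had at most 1 and 3 reads in any library, so that differences were not detectable at this depth.

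Many of the genes lie side by side. With a gap of at most 1 Mb, 9 stretches held 2 or more of the 55 genes. The Ccl2 stretch on chromosome 11 (chr11:82035571-82305690, mm10) held 6, of which the 3 tested were higher in both genotypes, and the Ccl5 stretch nearby held 5, all tested. The 3 tested genes of the Ccl2 stretch would not have passed the filter in control libraries alone, nor would Ccl3 and Ccl4. By contrast, of the 5 genes around Cxcl1 on chromosome 5 only Cxcl1 passed the filter, and of Ccl22, Cx3cl1 and Ccl17 on chromosome 8 only Cx3cl1 was called. Overlapping or adjacent genes were counted by the authors' pipeline, and reads shared between close paralogues such as Ccl2, Ccl7 and Ccl12 could not be checked.

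Between genotypes, no gene of the 55 was called. In KO-C against WT-C, limma called 0 of the 29, where 0% of all genes were called, and 2, Ccl17 and Xcr1, had an unadjusted p under 0.05. On whole reads recovered from the CPM, edgeR and DESeq2 also called 0, with 4 and 2 at an unadjusted p under 0.05. In KO-D against WT-D, limma called 0 of the 29, where 5.53% of all genes were called, and 2, Cx3cl1 and Cxcl12, had an unadjusted p under 0.05, with edgeR and DESeq2 also at 0 (2 and 3 unadjusted). For how far the change with diabetes differed by genotype, limma called 0 of the 29, where 0% of all genes were called. Its unadjusted p was under 0.05 for 3 genes, Ccl28, Cx3cl1 and Xcr1, and edgeR and DESeq2 called 0 as well (3 and 3 unadjusted). The intervals leave room for sizeable differences: KO-D against WT-D spanned -0.90 to 0.58 for Cxcl10, -1.19 to 0.94 for Ccl2 and -0.72 to 0.71 for Cx3cr1.

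The genes upstream and downstream of chemokines were read from 4 lists. Beside them, 13.6% of all genes were higher and 17.4% lower in the knockout, and 13.7% higher and 8.22% lower in the wild type. In KO-D against WT-D, 5.53% of all genes were called in either direction. Of 33 regulators known to induce chemokine genes, 28 were tested, 16 were higher in the knockout and 17 in the wild type, and none was lower. None of the 28 was called in KO-D against WT-D. Their median change was 1.21 in the knockout and 1.16 in the wild type, against 0.02 and 0.05 over all genes. The 4 with the smallest p in WT-D against WT-C were Irf7, Ddx58, Irf1 and Stat3. Irf7, the interferon regulatory factor that amplifies type I interferon, averaged 133 ± 91.1 CPM in WT-D and 3.12 ± 0.64 CPM in WT-C (SD, n = 3 each), a change of 5.10 ± 0.46 (adjusted p = 3.12e-05 in limma), and it changed by 4.11 in the knockout (adjusted p = 8.91e-05). Ddx58, which encodes the RNA sensor RIG-I, changed by 1.78 in the wild type and 1.87 in the knockout. Irf1, a factor downstream of interferon gamma, changed by 1.48 in the wild type and 1.18 in the knockout. Stat3, which relays interleukin 6 signals, changed by 1.13 in the wild type and 0.84 in the knockout, and the adjusted p of these 3 genes was at most 0.00268.

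Of 22 leukocyte adhesion genes, 20 were tested, with 10 higher and 1 lower in KO-D against KO-C and 13 higher in WT-D against WT-C. In KO-D against WT-D, 1 of the 20 was lower and none was higher, near the 5.53% of all genes called there in either direction. Vcam1, the endothelial and tubular ligand of integrin alpha 4 beta 1, averaged 18.8 ± 2.48 CPM in WT-D and 2.96 ± 1.09 CPM in WT-C (SD, n = 3 each). It changed by 2.69 in the wild type (adjusted p = 3.39e-05 in limma) and by 2.89 in the knockout (adjusted p = 2.39e-05). The hyaluronan receptor Cd44 changed by 2.29 in the wild type and 2.27 in the knockout, and Itgal, the alpha chain of LFA-1 on leukocytes, by 2.46 in the wild type and 1.66 in the knockout. Icam1, the LFA-1 ligand, changed by 1.55 in the wild type (adjusted p = 0.00118) and had 0.59 in the knockout, which was not called (adjusted p = 0.0811). The difference between genotypes was not called for Icam1, nor for any of the 18461 genes tested.

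Of 49 genes of chemokine receptor signalling, 48 were found and 47 tested. In the knockout 19 were higher and 2 lower (median 0.43), and in the wild type 24 were higher and 1 lower (median 0.74). In KO-D against WT-D, 3 of the 47 were lower and none was higher, near the 5.53% of all genes called there in either direction. The smallest p-values in the wild type belonged to Was and Dock2, which drive actin remodelling in leukocytes, and to Grk5 and Grk3, kinases that silence activated receptors. Dock2 averaged 2.98 ± 1.15 CPM in WT-D and 0.853 ± 0.291 CPM in WT-C (SD, n = 3 each), a change of 1.67 (adjusted p = 0.0028 in limma), and it changed by 1.76 in the knockout. Was changed by 1.74 in the wild type and 1.11 in the knockout, Grk5 by 1.11 in the wild type and 1.15 in the knockout, and Grk3 by 1.16 in the wild type and 1.35 in the knockout.

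Of 21 genes whose products cleave or hold chemokines, or are related ligands, 18 were tested, with 3 higher and 3 lower in the knockout and 6 higher in the wild type. The medians of this list, 0.07 and 0.35, were nearer to those of all genes, and its knockout counts were near the shares over all genes. In KO-D against WT-D, 2 of the 18 were lower and none was higher. The matrix metalloproteinases Mmp14 and Mmp2 changed by 2.43 and 2.07 in the wild type and by 1.70 and 1.71 in the knockout. Sdc3, a heparan sulphate proteoglycan, changed by 1.96 in the wild type and 1.29 in the knockout. Ccrl2, a receptor relative that presents chemerin, changed by 1.82 in the wild type (adjusted p = 0.00455) and had 0.90 in the knockout, which was not called (adjusted p = 0.0745). For Ccrl2, too, the difference between genotypes was not called.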

How the data were processed

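Per the labels and the study's methods, the authors aligned reads with STAR 2.7.3a to mm10 with GENCODE annotation, counted them per gene and used edgeR 3.28.0 in R 3.6.1. The deposited gene table held CPM, relative to each library's counted reads, with no scaling between libraries. Dividing each library by its smallest value gave whole reads for 100% of values above 0 (within 0.01). Columns of the authors' own comparisons (fold changes and p-values) were not used. Here CPM were scaled with TMM factors, genes with too few reads (edgeR's filterByExpr, minimum 10 reads) were left out, and log2(CPM + 0.1) was fitted with limma 3.58.1 (R 4.3.3, trend) to the 4 group means, with 8 residual degrees of freedom. Benjamini-Hochberg adjustment ran over all 18461 genes tested. The steps were tested on simulated data. Alternatives were edgeR 4.0.16 and DESeq2 1.42.0 on recovered reads, other scalings, pseudocounts, filters and thresholds, a replicate block, only the groups compared, and leaving out each library. Values in every library were given for genes with a mean of at least 1 CPM in a group or called in any comparison, and pathway lists by counts with up to 4 genes of smallest p in WT-D against WT-C. The gene family and all lists were chosen with earlier results of these data known. Promoter sequences and gene models came from RefSeq (GRCm38.p6) and GENCODE on mm10; protein sequences were not used here. Values of 1 gene of the family are not reported here, although counts over the family include it. Counts below the filter limit precision, and exact intervals cover counting error only.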

Additional observations from a re-analysis of the deposited data

How the results depend on the processing

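Of 54 called gene and comparison pairs, 37 kept their call under every alternative that tested them, and no called change reversed its sign. Of 1268 values under alternatives, 1166 stayed past the threshold and 102 did not. Keeping only genes with a mean of at least 1 CPM left 18 of the 29 genes, of which 11 were called in WT-D against WT-C, 9 in KO-D against KO-C and 10 in KO-D against WT-C. A threshold of 0.01 gave 12 calls in WT-D against WT-C, and so did leaving out WT-D replicate 1. Over the fits that left out 1 library, calls ranged from 12 to 20 in WT-D against WT-C, 13 to 18 in KO-D against KO-C and 12 to 20 in KO-D against WT-C. Some of these calls were new, such as Cxcl2 in all 3 comparisons and Ccl8 in WT-D against WT-C, which did not pass the main filter. edgeR and DESeq2 each called 18 in WT-D against WT-C, 18 for KO-D relative to WT-C, and 17 and 18 in KO-D against KO-C. In KO-D against KO-C, Ccl6 and Cx3cl1 were newly called with upper-quartile scaling and without scaling. Ccl6 was newly called there by DESeq2 too, in the fit of only the groups compared, and without WT-D replicate 1 or KO-D replicate 1. Without scaling, the median of all genes lay at 0.42 in WT-D against WT-C, 0.35 in KO-D against KO-C and 0.54 in KO-D against WT-C, and Cxcl16 was called in all 3; upper-quartile scaling placed it at 0.15 in KO-D against KO-C and 0.11 in KO-D against WT-C. Mice of 1 replicate number did not deviate together (correlations of -0.35 to 0.29, with 1 of 12 libraries closest to its own number). With 3 mice in each group, a pairing of small effect would not show in this check, so whether the numbers pair mice stays unknown. With a replicate block, 18 genes were called in WT-D against WT-C (Xcr1 lost), 17 in KO-D against KO-C and 17 in KO-D against WT-C (Cx3cl1 lost). The 3 comparisons between genotypes had 0 calls under all alternatives run. The wild-type Xcr1 call was lost in 19 of 23 alternatives and that of Ccl28 in 11 of 24. Without the filter on low values, calls were lost for Ccl6, Ccl28, Ccr2 and Xcr1 in WT-D against WT-C, for Ccl4 and Ccl9 in KO-D against KO-C, and for Ccl9, Ccr2, Cx3cl1 and Cxcl1 in KO-D against WT-C. That fit newly called Ccl20 and Cxcl2 in all 3 comparisons, and Ccl11 and Ccl24 in WT-D against WT-C. A fit of only the groups compared lost Ccl3, Ccl9, Ccr2 and Xcr1 in WT-D against WT-C. It also lost Ccl3 and Ccl4 in KO-D against KO-C and in KO-D against WT-C. These Ccl3 and Ccl4 calls were lost because the genes did not pass the filter in those fits.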

Other observations

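Cxcl11, the remaining CXCR3 ligand, fell outside the rule because the annotation lists it as a polymorphic pseudogene, and it was looked at after the values of Cxcl9 and Cxcl10 were known. It had 3.82, 3.28 and 4.55 CPM in KO-D, against 0.645, 0.412 and 0.811 CPM in KO-C, a change of 2.49 ± 0.30 (adjusted p = 0.00012 in limma). It had 3.09, 2.87 and 3.89 CPM in WT-D, against 1.26, 0.841 and 0.578 CPM in WT-C, a change of 1.81 ± 0.30 (adjusted p = 0.00155). Diabetic and control mice did not overlap in either genotype, and the changes differed by 0.68 ± 0.42 (adjusted p = 0.505).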
